A study of Mus musculus with 6 samples.

Results

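The 10 genes described here are enriched in angiogenic tip cells: Esm1, Apln, Aplnr, Pdgfb, Kcne3, Cxcr4, Igfbp3, Plaur, Unc5b and Fscn1. They were taken by gene symbol from a count table of 18404 genes, and all 10 were present and passed the low-count filter that left 14920 genes for testing. Tip cells are the endothelial cells that lead a growing vessel sprout. They extend filopodia toward VEGF-A, which they sense through the receptor VEGFR2, and Notch signalling keeps their neighbours from taking the same role. Some genes on this list are induced by VEGF-A in cultured endothelium, and several are also transcribed by leukocytes, keratinocytes or fibroblasts.

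The measurements are of RNA from ears of pups aged 3 days (postnatal day 3), with 3 skin libraries per group. The ecko pups (genotype label ecko, Vegfr2ecko in the titles) carried an induced endothelial deletion of Kdr, the gene of VEGFR2. The control pups are described as littermates, with the genotype given only as Control. Tamoxifen is recorded for both groups, by the series text from postnatal day 1 at 60 µg per day, and the series name gives a time of 48 h. The Cre driver, the floxed allele, the strain and whether each library is 1 animal are not given in the sources used here, so p-values measure the spread between these libraries. In bulk skin, fewer cells of a type and less RNA per cell cannot be told apart.

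The libraries held 16987130 to 17979182 expected counts (estimated reads per gene). Intervals for counts given below cover read sampling only, and not the spread between libraries. Kdr, the deleted gene, had 348, 431 and 370 counts in ecko and 1599, 1860 and 1337 in control, and was the 1 gene of 14920 past the edgeR test (0.0067% of genes; 0 higher, 0%). Without adjustment, 734 genes were higher and 611 lower at an edgeR p under 0.05, and DESeq2 called 87 higher and 26 lower. The fibroblast gene Col3a1 and the keratinocyte gene Krt14 were abundant in every library, and the endothelial genes Pecam1 and Cdh5 were also present in all 6. Control 3 stood apart with 5208 CPM summed over 10 skeletal muscle genes, against 7232 to 8788 in ecko and 7755 and 9263 in the other controls. Ecko 3 and control 2 had almost no Y-linked reads, with 6 and 4 counts of Ddx3y against 1445 to 1641 in the other libraries.

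None of the 10 genes passed the test for ecko against control. Adjusted p-values over all 14920 genes ran from 0.253 for Igfbp3 to 0.950 for Plaur (edgeR quasi-likelihood test, Benjamini-Hochberg). The mean was lower in ecko for 7 genes and higher for 3, and over all genes tested 50.5% had a lower mean. The median log2 fold change was -0.15, against -0.002 over all genes. In 4 genes, Esm1, Apln, Igfbp3 and Fscn1, every ecko library lay below every control library, and in 0 genes above, where 8.11% of all genes lay below without overlap and 7.55% above. An unadjusted p under 0.05 was reached by 3 of the 10, all with a lower mean in ecko, where 4.1% of all genes reached it on that side and 4.92% on the other.

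**Figure D1:**
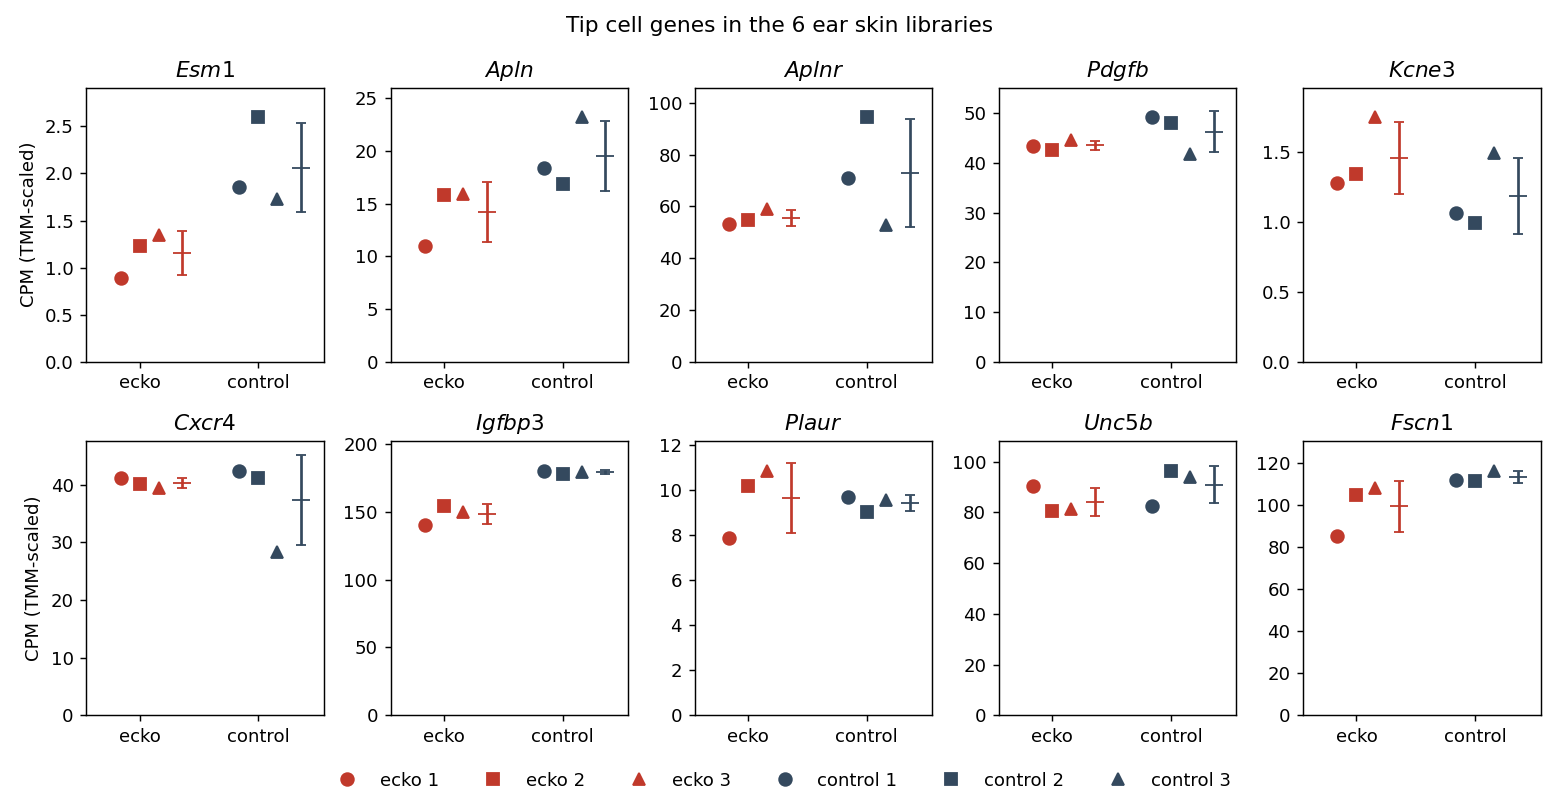
CPM (counts scaled to a common library size, linear axes from 0) of the 10 tip cell genes in each ecko and control library, with mean and SD over 3 libraries beside the points. The groups are apart in Esm1, Apln, Igfbp3 and Fscn1, and in Aplnr and Cxcr4 the control points are spread widely while the ecko points lie close together.

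The secreted and ligand genes are described first. Esm1 encodes endocan, a proteoglycan that endothelium secretes and a widely used tip cell marker. The gene (Entrez 71690) lies on chromosome 13 from 113209659 to 113218104 in GRCm38.p6. Its start region is shown because its unadjusted edgeR p was among the 3 smallest of the 10. Esm1 also had the lowest log2 fold change of the 10. Promoters run from 250 bases before to 50 after a RefSeq start site, read 5′ to 3′ on the gene's strand. Capitals mark each GGAA, the core of ETS factor sites, or its reverse complement TTCC. The Esm1 window is chr13:113209409-113209708 on the plus strand.

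Esm1: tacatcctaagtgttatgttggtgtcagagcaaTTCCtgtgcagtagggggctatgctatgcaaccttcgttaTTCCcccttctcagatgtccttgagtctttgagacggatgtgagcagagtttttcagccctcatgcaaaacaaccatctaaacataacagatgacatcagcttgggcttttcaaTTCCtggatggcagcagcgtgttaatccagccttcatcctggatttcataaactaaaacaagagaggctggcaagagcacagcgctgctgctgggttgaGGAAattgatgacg

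Esm1 had 16, 22 and 23 counts in ecko, against 33, 47 and 30 in control. The groups did not overlap, though the exact Poisson interval of ecko 3, 14.6 to 34.5 counts, takes in the control values 33 and 30. In CPM, counts scaled to a common library size, the level was 1.16 ± 0.24 in ecko and 2.06 ± 0.47 in control (SD, n = 3). This is a log2 fold change of -0.83 ± 0.27 (SE), which is 0.561-fold with a 95% interval of 0.370 to 0.849, and the edgeR adjusted p was 0.464. With 1 library left out, the log2 fold change ran from -0.96 (without ecko 3) to -0.63 (without control 2). Over the control libraries the coefficient of variation was 22.8%, where read sampling alone gives 16.5%. The long non-coding gene Gm41069 overlaps Esm1 over its whole length. Its reads were not analysed here, and with no strand setting stated the reads of the pair cannot be told apart.

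Apln encodes apelin, a secreted peptide of tip cells that acts on the receptor made by Aplnr. Apln (Entrez 30878) lies on the X chromosome from 48025146 to 48034853, and its window is chrX:48034804-48035103 on the minus strand.

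Apln: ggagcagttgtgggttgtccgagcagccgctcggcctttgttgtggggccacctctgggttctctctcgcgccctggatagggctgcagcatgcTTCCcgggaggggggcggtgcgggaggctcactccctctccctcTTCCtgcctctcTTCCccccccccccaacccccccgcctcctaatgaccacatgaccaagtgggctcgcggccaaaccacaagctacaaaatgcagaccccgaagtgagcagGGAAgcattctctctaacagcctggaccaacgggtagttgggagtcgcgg

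Apln had 197, 282 and 272 counts in ecko, against 327, 305 and 403 in control. The highest ecko library (15.9 CPM, ecko 3) was just under the lowest control (16.9 CPM, control 2). Those are the libraries almost without Y-linked reads, and between them the log2 difference was -0.09, while between ecko 1 and 2 and controls 1 and 3 it was -0.65. In the same order, Aplnr had -0.68 and -0.19 and Kcne3 had 0.82 and 0.05. Igfbp3 had -0.24 and -0.29, Pdgfb -0.11 and -0.08, and Esm1 -0.95 and -0.77. Unc5b had -0.24 and -0.04, and Fscn1 -0.05 and -0.27. The sign differed in Cxcr4, with -0.06 and 0.23, and in Plaur, with 0.27 and -0.10. The first value of each pair compares 1 library with 1, so whether the subsets differ cannot be judged. The fit over all 6 libraries gave a log2 fold change of -0.45 ± 0.17 (SE), or 0.730-fold with a 95% interval of 0.562 to 0.947, and an edgeR adjusted p of 0.512. Without ecko 1, the lowest library at 11.0 CPM, the log2 fold change was -0.30, and without control 3, the highest at 23.2 CPM, it was also -0.30. Whether sex or its X-linked position bears on the Apln difference was not tested.

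Aplnr, the apelin receptor gene, is expressed in veins and in growing vessels. Its counts were 954, 975 and 1010 in ecko, against 1264, 1708 and 916 in control. The ecko libraries lay within 53.1 to 59.1 CPM, while the controls ran from 52.8 to 94.5 CPM, so the groups overlapped through control 3. The control coefficient of variation was 28.7%, against 2.78% from read sampling and 5.59% in ecko. Ecko minus control gave -0.39 ± 0.19 on the log2 scale (SE; adjusted p 0.599), with a 95% interval of -0.85 to 0.07. It was -0.16 without control 2 and -0.57 without control 3. The summed level of 33 genes of all endothelium showed the same order of controls, with 1245 CPM in control 2, 1112 in control 1 and 1002 in control 3. Per 1000 counts of those 33 genes, Aplnr had 63.9, 75.9 and 52.7 in controls 1 to 3, the same order again. In ecko it had 54.9, 54.1 and 57.8. The part of endothelial content in the spread of Aplnr was not tested. Apela, the gene of the other apelin receptor ligand, had 1.31 ± 0.46 CPM in ecko and 1.58 ± 0.56 CPM in control (SD, n = 3; adjusted p 0.828).

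Pdgfb encodes the growth factor by which sprouting endothelium attracts pericytes. It had 43.3, 42.7 and 44.5 CPM in ecko, against 49.2, 48.0 and 41.7 CPM in control. All 3 ecko libraries lay between control 3 and the other 2 controls. Its log2 fold change was -0.09 ± 0.08 (SE; adjusted p 0.749), and the 95% interval of -0.27 to 0.09 leaves room for a level 0.829-fold to 1.06-fold that of control. Without control 1 the value was -0.045, and without control 3 it was -0.16. The microRNA gene Mir7213 lies within Pdgfb, and its reads were not analysed here. Pdgfrb, the receptor gene on pericytes, had 88.3 ± 7.2 CPM in ecko and 86.9 ± 7.3 CPM in control (SD, n = 3; adjusted p 0.939). Pericyte markers summed to 522 to 523 CPM in ecko and 490 to 527 CPM in control, with 4 of 8 lower by mean. Of the 8, 1 lay higher without overlap and 0 lower, where 7.55% of all genes lay higher. That gene, Ndufa4l2, had 52.3 ± 3.3 CPM in ecko and 32.8 ± 5.3 CPM in control (SD, n = 3; edgeR adjusted p 0.150). Platelets also carry the growth factor of Pdgfb, and platelet markers summed to 45.6 to 49.2 CPM in ecko and 47.0 to 50.2 CPM in control. The part of both cell types in the Pdgfb level was not tested.

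Igfbp3 encodes a secreted protein that binds insulin-like growth factors. The gene (Entrez 16009) lies on chromosome 11 from 7206086 to 7215498, and its window, chr11:7213874-7214173 on the minus strand, is shown because Igfbp3 had the smallest p of the 10. The window is built on a RefSeq start site at 7213923, which lies inside that span and not at its 5′ end, 7215498.

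Igfbp3: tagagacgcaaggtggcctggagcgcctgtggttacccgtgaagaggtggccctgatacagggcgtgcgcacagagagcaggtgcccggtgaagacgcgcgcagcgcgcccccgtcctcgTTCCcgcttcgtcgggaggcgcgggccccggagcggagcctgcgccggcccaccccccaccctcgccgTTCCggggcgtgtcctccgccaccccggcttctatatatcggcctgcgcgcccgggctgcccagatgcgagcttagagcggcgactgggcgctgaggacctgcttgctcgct

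Igfbp3 had 2517, 2750 and 2565 counts in ecko, against 3208, 3210 and 3110 in control. The highest ecko library reached 154 CPM and the lowest control 178 CPM, so the gap was wider than the range within either group. The log2 fold change was -0.27 ± 0.06 (SE), a level 0.827-fold that of control with a 95% interval of 0.755 to 0.906. Its unadjusted edgeR p of 0.000826 ranked 48 among all genes, and the adjusted p was 0.253. With DESeq2 it passed with an adjusted p of 0.0325, the 1 gene of the 10 to do so, where DESeq2 called 0.174% of all genes lower and 0.583% higher. Igf1, the gene of a ligand of IGFBP3, had a log2 fold change of -0.05 (adjusted p 0.892), and its receptor gene Igf1r had 0.14 (adjusted p 0.642).

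GGAA or its complement occurred in all 9 promoter windows found for 8 of the 10 genes (2 windows for Kcne3), and in 96.0% of all 32851 windows in the RefSeq table. The longer ETS-type sequence CAGGAAG, which contains GGAA, was in 3 of the 9 windows, that of Apln and both of Kcne3, against 13.3% of all windows. GTGGGAA, an RBPJ-type sequence that also contains GGAA, and the SOX-type sequence AACAAT were in 0 of the 9, against 6.38% and 10.7%. ACGTG, the core of hypoxia response elements, was in 1 of the 9, against 19.6%. Both strands were searched, and a match is a description of letters only.

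The other receptor genes and the channel gene follow. Cxcr4 encodes the receptor for the chemokine CXCL12 and is found on tip cells and on most leukocytes. It had 41.1, 40.1 and 39.4 CPM in ecko, against 42.4, 41.1 and 28.3 CPM in control. Control 3 alone was low. Over all libraries the log2 fold change was 0.11 ± 0.14 (SE; adjusted p 0.828), and without control 3 it was -0.05. The 10 pan-leukocyte markers summed to 302 to 327 CPM in ecko and 263 to 301 CPM in control. Of the 10, 9 were higher by mean, 5 were higher without overlap and 0 passed the test. Over all genes tested, 7.55% lay higher without overlap. The part of leukocytes in the Cxcr4 level was not tested. Cxcl12, the ligand gene, had 157 ± 3.3 CPM in ecko and 152 ± 8.4 CPM in control (SD, n = 3; adjusted p 0.835), and Ackr3, the gene of its scavenging receptor, had a log2 fold change of -0.16 (adjusted p 0.621).

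Unc5b encodes a netrin receptor of tip cells and arteries. It had 90.6, 80.6 and 81.5 CPM in ecko, against 82.5, 96.5 and 93.9 CPM in control. The ranges overlapped, with ecko 1 above control 1. Its log2 fold change was -0.11 ± 0.08 (SE; adjusted p 0.684), with -0.17 without ecko 1, -0.18 without control 1 and -0.07 without control 2. Of its partners, the netrin genes Ntn1 and Ntn4 had log2 fold changes of -0.08 and 0.05 (adjusted p 0.802 and 0.920), and the ligand genes Flrt2 and Flrt3 had 0.16 and 0.10 (adjusted p 0.535 and 0.694). Robo4, an endothelial receptor that binds UNC5B, had 18.7 ± 1.1 CPM in ecko and 22.9 ± 2.0 CPM in control (SD, n = 3), without overlap, and an adjusted p of 0.495.

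Plaur encodes the receptor that holds urokinase at the cell surface, on tip cells as well as macrophages and keratinocytes. It had 7.90, 10.2 and 10.9 CPM in ecko, against 9.72, 9.02 and 9.57 CPM in control. The ecko libraries spanned the whole control range, with ecko 1 below it and the other 2 above. For Plaur the log2 fold change was 0.03 ± 0.14 (SE; adjusted p 0.950) and took either sign when 1 library was left out. The urokinase gene Plau had 46.7 ± 4.2 CPM in ecko and 38.9 ± 2.2 CPM in control (SD, n = 3). Its groups did not overlap, its log2 fold change was 0.26 ± 0.09 (SE) and its adjusted p was 0.471. Macrophage markers summed to 753 to 826 CPM in ecko and 681 to 778 CPM in control. Of these, 12 of 12 were higher by mean, 5 were higher without overlap and 0 passed the test. Over all genes tested, 7.55% lay higher without overlap. The part of macrophages in Plaur and Plau was not tested.

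Kcne3 encodes an accessory subunit of potassium channels that was found among tip cell transcripts. It had 23, 24 and 30 counts in ecko, against 19, 18 and 26 in control. The Poisson interval of control 2, 10.7 to 28.4 counts, takes in ecko 1 and 2 and not ecko 3, and control 3 lay above ecko 1 and 2, so the groups overlapped. The log2 fold change was 0.30 ± 0.27 (SE; adjusted p 0.756), with a 95% interval of 0.809-fold to 1.87-fold. It was 0.15 without ecko 3, 0.18 without control 2 and 0.50 without control 3. The long non-coding genes Gm34821 and Gm51453 overlap Kcne3, and their reads were not analysed here. Kcnq1, which encodes a channel that KCNE3 can join, had 2.12 ± 0.16 CPM in ecko and 2.55 ± 0.31 CPM in control (SD, n = 3; adjusted p 0.696).

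Fscn1 encodes fascin, which bundles actin in filopodia and is also made by mature dendritic cells. It had 85.5, 105 and 108 CPM in ecko, against 112, 112 and 117 CPM in control. The groups did not overlap, but ecko 2 and ecko 3 lay close under the controls and ecko 1 well below them. The log2 fold change was -0.19 ± 0.09 (SE; adjusted p 0.560), and without ecko 1 it was -0.09. Dendritic cell markers summed to 113 to 142 CPM in ecko and 125 to 165 CPM in control, with 7 of 8 tested lower by mean and 0 past the test. The maturation marker Ccr7 was near 0 in both groups, at 0.113 and 0.207 CPM in ecko and control. Its counts, 2, 2 and 2 in ecko and 6, 2 and 3 in control, did not pass the low-count filter. The part of dendritic cells in the Fscn1 level was not tested.

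**Figure D2:**
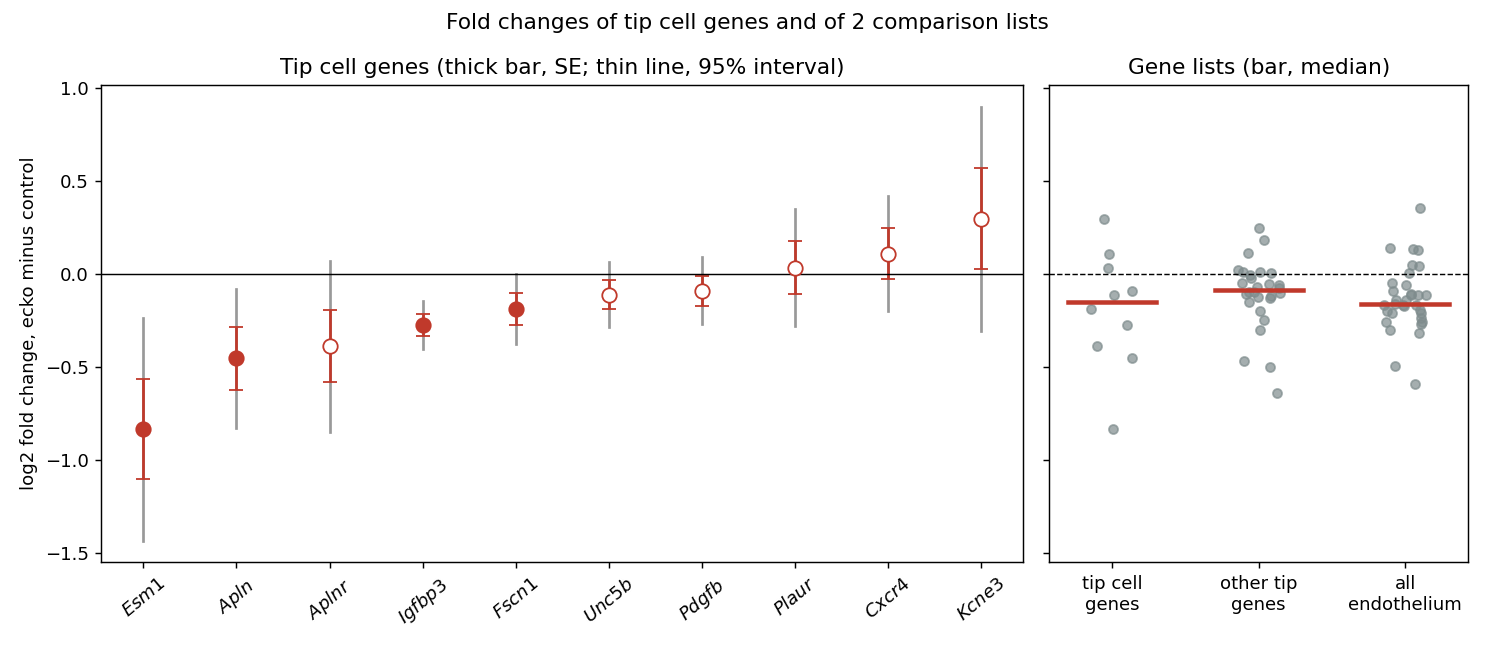
Log2 fold changes of the 10 genes, with filled points where the groups did not overlap, SE bars and thin 95% intervals, beside all tested genes of 2 comparison lists with their medians (dashed line, median of all genes). The medians were -0.15 for the 10 genes, -0.09 for other tip cell genes and -0.16 for genes of all endothelium.

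The libraries did not contribute evenly. Among ecko libraries, ecko 1 was the lowest in 7 of the 10 genes and ecko 3 the highest in 7. Ecko 1 was the lowest of all 6 libraries in 5 genes and the highest in 0. Without control 3 the mean was lower in ecko for 8 genes and 6 lay below without overlap, where 14% of all genes did so.

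Levels of different genes were compared per exon length, as TPM (counts divided by exon length and scaled to the same sum in each library) over 17750 genes with a length. Igfbp3 was the most abundant, at 129 ± 5.5 in ecko and 153 ± 3.2 in control (SD, n = 3), followed by Fscn1 at 102 ± 12 and 113 ± 0.53. Cxcr4, Aplnr, Pdgfb and Unc5b formed a middle group of 39.3 to 61.0 in ecko and 41.4 to 55.4 in control, in which neighbours overlapped except Cxcr4 with Aplnr in ecko. Plaur and Apln followed, at 17.5 and 12.4 in ecko and 16.8 and 16.5 in control. Plaur was above Apln in every ecko library, and in control the ranges overlapped. Esm1 and Kcne3 were the lowest, and the order of their means differed between groups, a difference that was not tested: Esm1 was below Kcne3 in ecko, at 1.51 ± 0.30 against 2.34 ± 0.40 without overlap, while in control Esm1 had 2.64 ± 0.63 and Kcne3 1.86 ± 0.39 with overlap. Igfbp3 and Fscn1 exceeded the pan-endothelial gene Pecam1, at 88.1 ± 2.8 in ecko and 96.8 ± 10 in control, in both groups by mean.

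**Figure D3:**
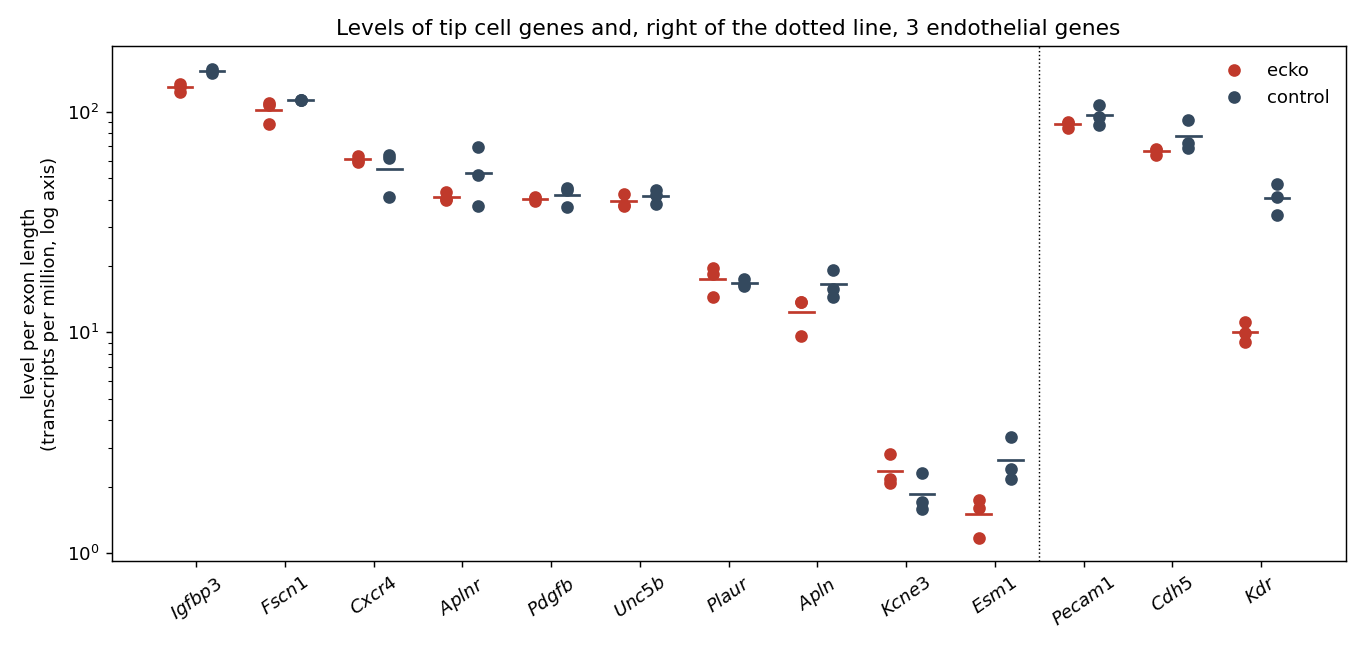
Levels per exon length (TPM, log axis) of the 10 genes in ecko and control libraries, with lines at group means, and of Pecam1, Cdh5 and the deleted gene Kdr to the right of the dotted line. The genes span from about the level of Esm1, 1.51 in ecko and 2.64 in control, to that of Igfbp3, 129 in ecko and 153 in control.

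The 10 genes were then set beside endothelium in general. For the 33 genes of all endothelium the median log2 fold change was -0.16, and 26 were lower by mean, 9 lower without overlap (27.3%) and 1 higher without overlap, compared with 4 of 10 (40%) and 0 of 10 for the tip cell genes. Over all genes tested, 50.5% were lower by mean, and 8.11% lay lower and 7.55% higher without overlap. None of the 33 passed the test. Gpihbp1, which holds lipoprotein lipase on capillaries, had the smallest p of that list (log2 fold change -0.59 ± 0.12 SE, adjusted p 0.209), followed by Arhgef15 (-0.49, adjusted p 0.454), and the capillary diaphragm gene Plvap (-0.21, adjusted p 0.496). Summed over the 33 genes, ecko had 966, 1010 and 1023 CPM and control 1112, 1245 and 1002 CPM, and the groups overlapped through control 3.

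Each tip cell gene was divided by that sum within its own library. On this scale the median over the 10 genes was a log2 difference of 0.006, and the median over 14900 genes with counts in every library was 0.159. Esm1 had 0.921, 1.22 and 1.32 counts per 1000 endothelial counts in ecko, against 1.67, 2.09 and 1.73 in control. It was the 1 gene of the 10 to stay below without overlap, as 0.496% of all genes did, with a log2 difference of -0.67. Apln was not apart on this scale, with 11.3, 15.6 and 15.6 in ecko against 16.5, 13.6 and 23.2 in control, nor was Igfbp3, with 145, 153 and 147 in ecko against 162, 143 and 179 in control. Before the division, Igfbp3 had 178 to 180 CPM over the controls, where the endothelial sum ran from 1002 to 1245 CPM. The division takes each gene as read mainly in endothelium, which was not tested. Cxcr4 lay above without overlap, at 42.5, 39.7 and 38.5 in ecko against 38.2, 33.0 and 28.2 in control, as 23.5% of all genes did on this scale. For Esm1 and for Cxcr4 the two-sided exact permutation p was 0.1, the smallest that 3 against 3 libraries allow, and for the other 8 genes it was 0.3 to 0.9, so no difference on this scale could pass 0.05.

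**Figure D4:**
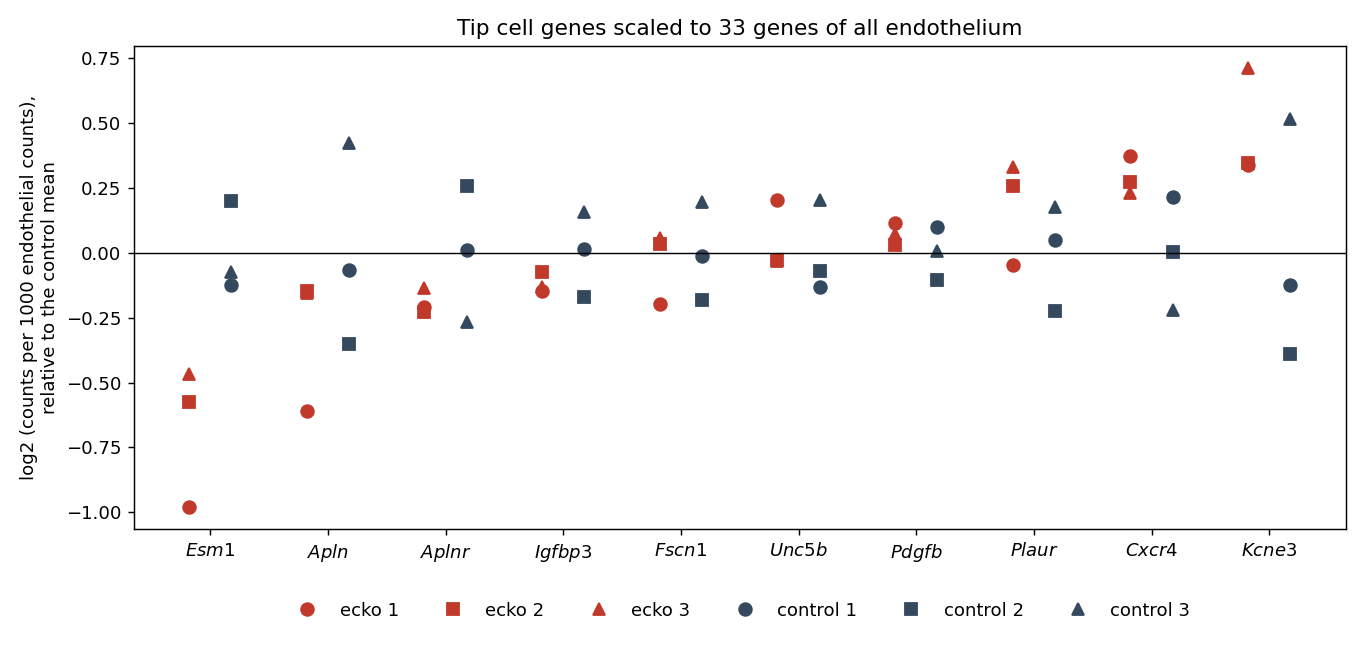
Counts of each of the 10 genes per 1000 counts of 33 genes of all endothelium, as log2 values relative to the control mean, for each ecko and control library. For Esm1 the 3 ecko points all lie under the control points, and the ecko points of Apln, Aplnr, Igfbp3 and Fscn1 lie within or across the control range.

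A further 28 genes described as high in tip cells gave no call either. Of these, 21 had a lower mean in ecko and 7 a higher one, and the median log2 fold change was -0.09. Without overlap, 8 were lower (28.6%) against 1 higher. Over all genes tested, 50.5% had a lower mean, and 8.11% lay lower and 7.55% higher without overlap. Dll4, the Notch ligand by which tip cells restrain their neighbours, had 7.01, 8.35 and 9.53 CPM in ecko, against 10.0, 13.6 and 11.7 CPM in control. Its log2 fold change was -0.50 ± 0.16 (SE; adjusted p 0.447), and no ecko library reached the control range. Rgcc, a regulator of the cell cycle, had -0.47 ± 0.14 (adjusted p 0.430). Trp53i11, Vwa1 and the semaphorin receptor gene Plxnd1 had -0.20, -0.25 and -0.15, each without overlap and with adjusted p of 0.516 to 0.553. The insulin receptor gene Insr went the other way, with 88.5 ± 6.3 CPM in ecko and 74.7 ± 6.6 CPM in control (SD, n = 3), without overlap and with an adjusted p of 0.482. Among 18 ligand, receptor and protein partners of the 10 genes the median was 0.03, with 11 higher and 7 lower by mean and 0 past the test. Without overlap, 1 of the 18 was lower (Robo4) and 1 higher (Plau), 5.56% each, which is below the shares over all genes.

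**Figure D5:**
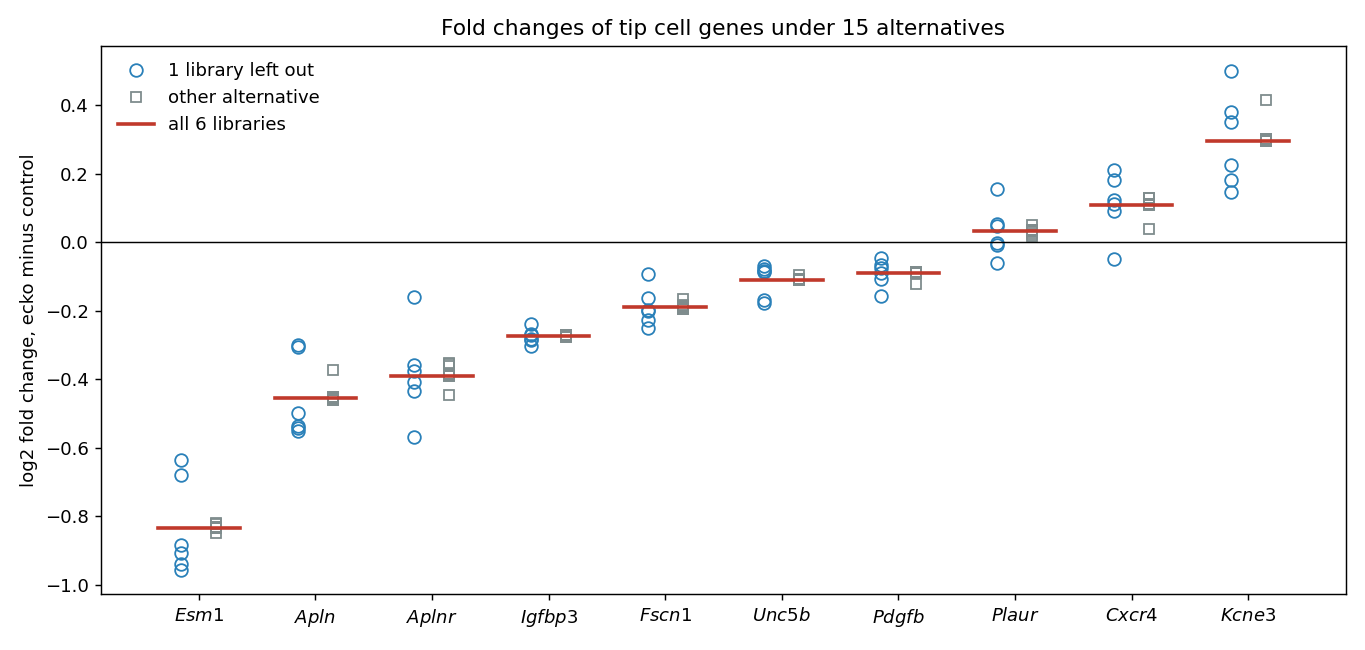
Log2 fold changes of the 10 genes with all 6 libraries (line), with 1 library left out (circles) and under 9 other alternatives (squares). Esm1, Apln, Aplnr, Igfbp3, Fscn1, Unc5b and Pdgfb stay below 0 in all 15, Kcne3 stays above 0, and Plaur and Cxcr4 lie on both sides of 0 when libraries are left out.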

How the data were processed

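The deposited table holds expected counts, estimated reads per gene that the authors did not scale between libraries, as read from the column headers and from 10.1% to 10.4% of values per library not being whole. HISAT2 2.2.1, Bowtie2 2.4.5, RSEM 1.3.1 and GRCm38.p6 are named without roles per the submitters' processing notes. Poly(A) RNA was selected, per the labels' protocols.

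Counts were rounded and tested for ecko minus control with edgeR 4.0.16 in R 4.3.3 (filterByExpr with a minimum count of 10, TMM, robust glmQLFit), with Benjamini-Hochberg adjustment over all 14920 genes and a threshold of 0.05. SE is the absolute log2 fold change over the square root of F, and 95% intervals use the degrees of freedom of the test. CPM is scaled by TMM. Intervals for counts are exact Poisson. Exact permutation tests used scipy 1.17.1. Alternatives included DESeq2 1.42.0 and limma-voom (limma 3.58.1). The test was run first on simulated counts with known changes. Positions, 18353 matched identifiers and promoters are from RefSeq GRCm38.p6, and exon lengths from GENCODE M21 of the same build.

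The 10 genes, the comparison lists and the motifs were chosen with earlier results of these data known. All 10 genes were named, with the 6 smallest p of the other tip cell list, 3 of the endothelial list, chosen partners, and the promoters of the 3 genes with the smallest p. The choice of Robo4, Ntn4, Flrt2, Flrt3, Ccr7 and Ndufa4l2, outside this rule, was made with their values known. A partner gene named by the rule is not reported here.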

Additional observations from a re-analysis of the deposited data

How the results depend on the processing

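None of the 10 genes passed in any of 15 alternatives except Igfbp3 with DESeq2, the 1 gene called lower. Of 150 gene and setting pairs, 145 kept direction and side of the threshold. The sign turned in 4, all around 0 with 1 library left out: Plaur ran from -0.060 (without ecko 3) to 0.156, with -0.0075 without ecko 2 and -0.0017 without control 2, and Cxcr4 from -0.049 (without control 3) to 0.212. The median of the 10 ran from -0.19 to -0.11 with 1 library left out, and from -0.15 to -0.14 otherwise. Genes called over the whole table were 87 higher and 26 lower with DESeq2, 88 and 10 with the replicate block, 46 and 8 with the skeletal muscle covariate and 1 higher with the Ddx3y covariate, and 0 to 2 higher with 1 library left out. The cause was not tested. Under the replicate block 0 of the 10 genes passed. Deviations of equal numbers correlated at 0.16, -0.24 and -0.07 across genes, and not every library correlated best with its own number. The largest correlation, 0.34, was between control 2 and ecko 3, the libraries almost without Y-linked reads. With 3 libraries per group that also differ in Y-linked reads, these values cannot decide whether equal numbers mark a shared litter or handling. The sample labels give no pairing beyond the number. The counts with a lower mean (7 to 8) and lower without overlap (4 to 6, where 10.4% to 15.6% of all genes were) with 1 library left out were added after seeing the data. On the endothelial scale the median of the 10 ran from -0.03 to 0.07 and Esm1 from -0.78 to -0.52 over 8 alternatives. Counts of 16 to 47 for Esm1 and 18 to 30 for Kcne3 limit both genes.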
